A study of Mus musculus with 2 samples.

Results

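Fibroblasts of the mouse uterus in which Pi16, Pcolce2 and C1qtnf3 were the leading marker set were described in 2 droplet single-cell RNA libraries. The members were chosen by a rule on counts of unique molecular identifiers (UMIs, each standing for 1 captured transcript). Barcodes were kept if they held 1000 UMIs or more and 500 genes or more, and if mitochondrial genes took no more than 20% of their UMIs. A kept barcode was gated as a fibroblast with at least 3 UMIs of Pdgfra, Dcn and Lum together and none of Ptprc or Epcam. A gated barcode was a member where Pi16, Pcolce2 and C1qtnf3 together had at least 3 UMIs and more than each of 3 other sets. Those sets were Frzb, Ngfr and Nog (the Frzb set), Ptx3, Has2 and Cxcl5 (the Ptx3 set), and Scube1 and A2m (the Scube1 set), and ties were left out. The rule found 262 members among 2257 gated fibroblasts and 7076 kept barcodes. Of these members, 105 came from the library that the labels call control and 157 from the cKO library.

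The control library came from Prickle1 f/f mice and the cKO library from Prickle1 f/f MiC mice, so that both groups carry the floxed Prickle1 allele. All mice were C57BL/6J females aged 6 months, each library pooled the whole uteri of 3 mice, and the tissue was dispersed with collagenase and DNase I before capture. The labels do not spell out MiC or the cells in which it acts, they enter wild-type as the genotype of each library, and no cell can be traced to a mouse. With 1 library per group there is no replicate error and no test: intervals below are 95%, cover counting error only, and say nothing of variation between mice or digestions.

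Adventitial fibroblasts line the outer coat of vessels and the connective tissue sheaths of organs. In mouse tissues, cells of this type are known for Pi16, Dpp4, Cd34, Ly6a and Sema3c, and are described as a reservoir from which other fibroblasts can arise. Their matrix is rich in microfibrils and elastic fibres, in contrast to the stroma of the endometrium, which responds to ovarian hormones and is marked by steroid receptors and Hox genes. Pi16 encodes a secreted peptidase inhibitor of the CAP family, Pcolce2 an enhancer of procollagen processing, and C1qtnf3 a secreted protein of the C1q and tumour necrosis factor related family.

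The promoters of the 3 rule genes are shown because the results below turn on how differently these genes are distributed over the members. Each is the 250 bases before the RefSeq start (GRCm38.p6, + strand): Pi16 at chr17:29318632-29318881, Pcolce2 at chr9:95637378-95637627 and C1qtnf3 at chr15:10952082-10952331. The GENCODE vM21 annotation starts Pi16 earlier, at 29317680, so the Pi16 window lies within the gene as annotated there. It starts Pcolce2 at 95637601, within the Pcolce2 window. Capitals mark the only matches to 4 motifs searched on both strands.
Pi16: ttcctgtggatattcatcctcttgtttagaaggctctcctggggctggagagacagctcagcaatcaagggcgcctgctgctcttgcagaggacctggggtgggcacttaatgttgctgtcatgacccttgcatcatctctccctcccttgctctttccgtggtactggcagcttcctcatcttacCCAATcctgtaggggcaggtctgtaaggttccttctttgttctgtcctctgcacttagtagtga
Pcolce2: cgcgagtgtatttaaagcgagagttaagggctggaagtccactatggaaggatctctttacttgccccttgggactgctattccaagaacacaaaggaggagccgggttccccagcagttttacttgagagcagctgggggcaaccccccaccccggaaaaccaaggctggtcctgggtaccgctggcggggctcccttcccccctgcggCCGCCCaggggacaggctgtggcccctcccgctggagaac
C1qtnf3: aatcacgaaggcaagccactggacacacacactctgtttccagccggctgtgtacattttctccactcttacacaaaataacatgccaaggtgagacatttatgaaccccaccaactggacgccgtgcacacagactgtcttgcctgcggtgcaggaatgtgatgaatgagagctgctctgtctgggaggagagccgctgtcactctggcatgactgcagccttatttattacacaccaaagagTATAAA
Pi16 held a CCAAT box, which 33.8% of 32851 RefSeq promoters of this length also hold. Pcolce2 held a GC box (GGGCGG, here on the reverse strand), found in 32.7% of them, and C1qtnf3 held TATAAA, found in 12.4%. The AP-1 letters TGANTCA, found in 6.75% of promoters, occurred in none of the 3. The 4 motifs share no overlapping match here, and each match is a description of letters, not a site in use.

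The rule genes and the other markers given for these cells were checked first. Levels are a gene's UMIs per 1000000 UMIs of the cells summed (CPM), and the values of Pi16, Pcolce2 and C1qtnf3 follow from the rule and are given as a description. C1qtnf3 was the most abundant of the 3, at 603 CPM in the control members (1018 UMIs, interval 567 to 641) and 478 CPM in the cKO members (885 UMIs, 447 to 510). Pcolce2 stood at 214 CPM (361 UMIs) and 294 CPM (545 UMIs). Pi16 stood at 52.7 CPM (89 UMIs, 42.3 to 64.9) in the control members and 329.8 CPM (611 UMIs, 304 to 357) in the cKO members. Pi16 was thus the scarcest of the 3 in the control members and exceeded Pcolce2 in the cKO members. Clec3b, which encodes the plasminogen-binding protein tetranectin, and Igfbp3, an insulin-like growth factor binding protein, were not used by the rule. Clec3b was at 310.4 and 461 CPM in the members and 163 and 164 CPM in the other gated fibroblasts of the same libraries. Igfbp3 was at 1426 and 1813 CPM in the members against 702 and 677 CPM. Both markers were therefore higher in the members in each library. Neither was particular to them: the Ptx3 set had 241 and 266 CPM of Clec3b and 1024 and 1014 CPM of Igfbp3.

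C1qtnf3 was also the most widely detected of the 3 in single cells, and Pi16 the least. A UMI of Pi16 was found in 20 of 105 control members (19.0%) and 78 of 157 cKO members (49.7%), Pcolce2 in 68 (64.8%) and 96 (61.1%), and C1qtnf3 in 98 (93.3%) and 124 (79.0%). Control members were deeper, with a median of 14567 UMIs against 10230 in the cKO library. With each barcode thinned to 1000 UMIs, Pi16 was found in 4.76% and 22.9% of members. Macrophages, which should lack the gene, gave the background. Pi16 had no UMI in 185 control macrophages (median 9697 UMIs), which allows a share of up to 1.62%, and none in 116 cKO macrophages (median 7965 UMIs), which allows up to 2.59%. The rule used Pi16, so its share in the members is given as a description.

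Few members sat at the edge of the rule. Members had a median of 10 UMIs of the 3 rule genes in both libraries, and 9 control and 16 cKO members had exactly 3. Just outside, 7 and 17 gated barcodes had 2 UMIs and no larger set. Members with exactly 3 had Igfbp3 at 770.1 and 1695 CPM, and the barcodes just outside had it at 1129 and 767 CPM. The threshold left 206 of 893 control and 401 of 1364 cKO gated barcodes, and the competition between sets then removed many of these. Another set was larger in 93 control and 231 cKO gated barcodes that also had at least 3 UMIs of the rule genes, and the Ptx3 set was larger in 56 and 164 of them. A UMI of a competing set was present in 80 control members (76.2%) and 131 cKO members (83.4%), so these counts did not separate the sets cleanly. The part of free RNA and doublets in those UMIs was not tested.

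**Figure D1:**
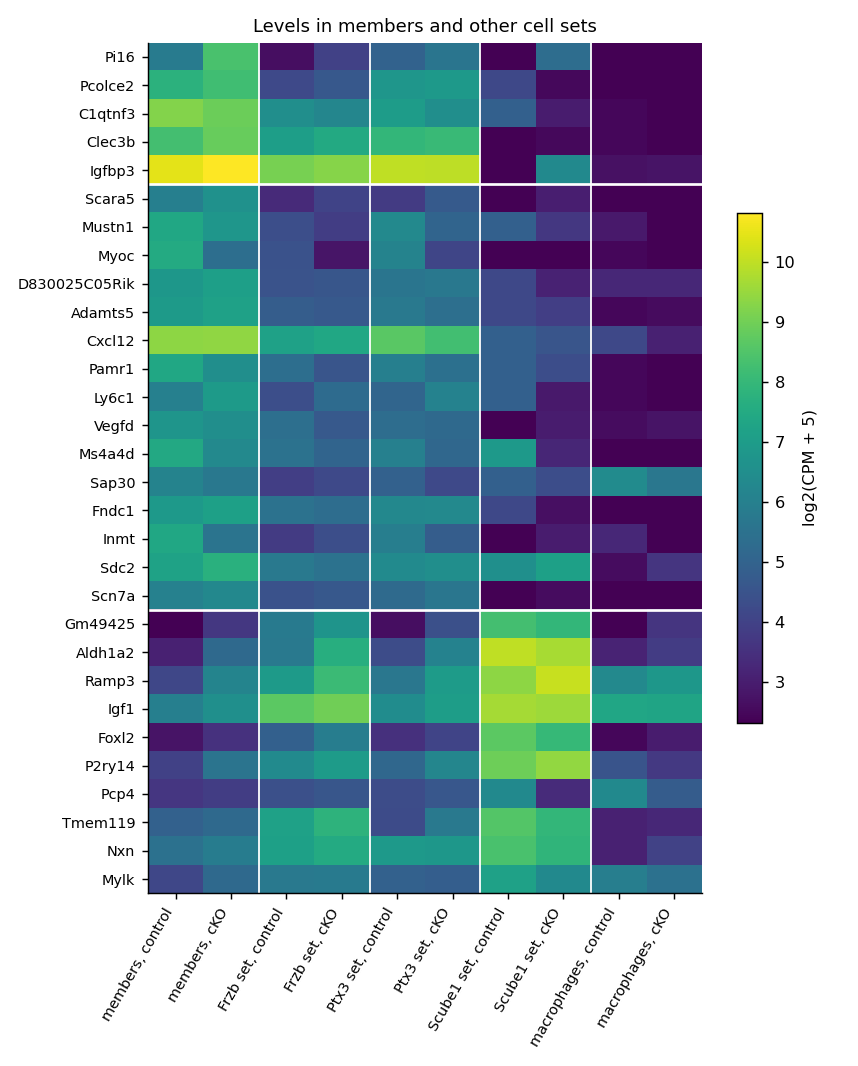
Levels (log2 of CPM + 5) of the 5 marker genes, the 15 genes highest and the 10 lowest in members over other gated fibroblasts, for members, the 3 competing fibroblast sets and macrophages in each library. The members have the brightest cells for the markers and for most genes of the middle block, and the Scube1 set has the brightest cells for most of the bottom block; its control column rests on 6 cells.

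The members were not uniform: most were led by C1qtnf3, and Pi16 was concentrated in a minority. C1qtnf3 held most of the rule UMIs in 78 of 105 control members (74.3%, interval 64.8 to 82.3) and in 86 of 157 cKO members (54.8%, 46.6 to 62.7). Pcolce2 led in 17 (16.2%) and 34 (21.7%). Pi16 led in 4 control members (3.81%, 1.05 to 9.47) and 27 cKO members (17.2%, 11.6 to 24.0), and 6 and 10 members were ties. The 4 and 27 Pi16-led cells held 61.8% and 63.0% of all Pi16 UMIs of the members, with up to 35 and 44 UMIs in a single cell. Among members with a Pi16 UMI, 70.0% in the control and 64.1% in the cKO library also had C1qtnf3, against 98.8% and 93.7% of members without Pi16. The rule itself favours such a contrast, since a member without Pi16 must hold 1 of the other genes. All 3 genes were detected together in 13 control and 38 cKO members.

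**Figure D2:**
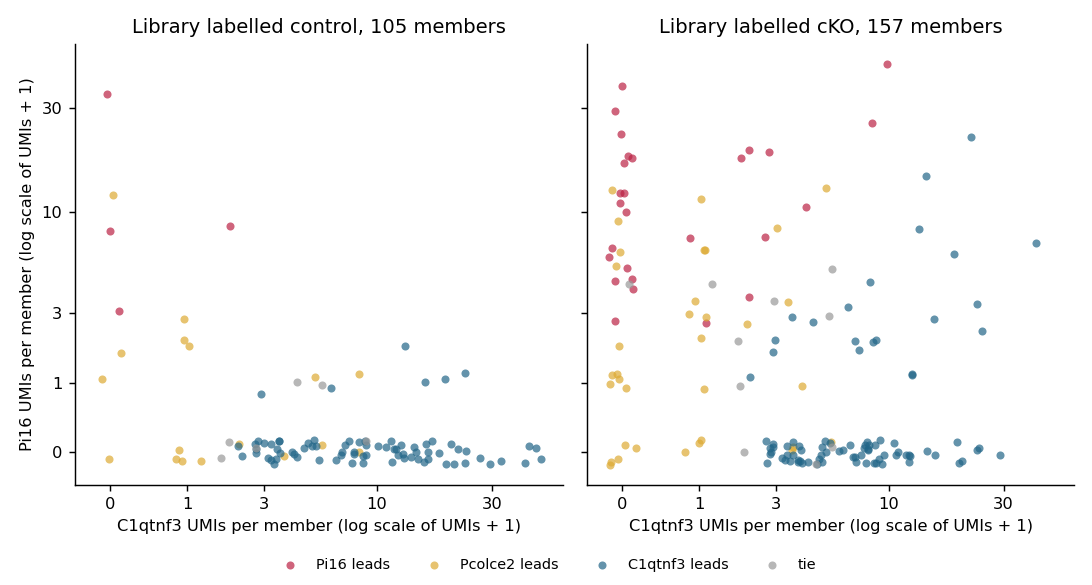
UMIs of C1qtnf3 (x axis) and Pi16 (y axis) in each member, on a log scale of UMIs + 1 with a small random offset, coloured by the rule gene with most UMIs. Members with C1qtnf3 and no Pi16 lie along the bottom (84 of 105 in the control and 74 of 157 in the cKO library), and most of the 4 and 27 Pi16-led members lie toward the left side with little C1qtnf3.

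Most adventitial genes were higher in the Pi16-led members than in the C1qtnf3-led majority, which also carried many of them at a lower level. The comparison was made within the cKO library, where 27 Pi16-led and 86 C1qtnf3-led members were available, so that library and digestion were shared. Of 20 genes listed for adventitial or universal fibroblasts, 16 were at least 2-fold higher in the Pi16-led members, on the log2 scale after adding 5 CPM, and 1 (Procr) was at least 2-fold lower. Of all 7818 genes with a mean of at least 10 CPM over the members of both libraries, 5.62% were that much higher and 9.45% that much lower. The list's median log2 ratio was 1.71, beside a median of -0.08 over all these genes. Dpp4, the surface peptidase that marks these cells in other tissues, was at 116 CPM (35 UMIs) in Pi16-led and 4.20 CPM (4 UMIs) in C1qtnf3-led members, a ratio of 27.6 (interval 9.85 to 107). Sema3c, a secreted guidance cue, was at 615 and 67.2 CPM. The complement regulator Cd55 was at 1219.9 and 295 CPM, and was found in all 27 Pi16-led members. The surface proteins and the microfibril genes followed. Cd34 was at 714 and 206 CPM, Ly6a at 731 and 112 CPM and Ly6c1 at 307 and 58.8 CPM. Mfap5, a component of microfibrils, was at 886 and 135 CPM. Fbn1, the fibrillin that builds them, was at 552 and 176 CPM.

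Igfbp5, a gene of the list, was at 1002 CPM in the Pi16-led and 106 CPM in the C1qtnf3-led cKO members. Genes outside the list differed as well. Igfbp4 was at 638 and 68.2 CPM, and 1 cell held 41.5% of its 193 UMIs in Pi16-led members. The eosinophil chemokine Ccl11 was at 198 and 17.8 CPM, with 31.7% and 82.4% of its 60 and 17 UMIs in 1 cell each. The phospholipase Pla1a was at 202 and 15.7 CPM, and Ace, the angiotensin-converting enzyme, at 69.4 and 6.30 CPM. In the other direction the largest difference on the log2 scale after adding 5 CPM was in Igfbp3, 1 of the markers given for the whole set. It stood at 129 CPM (39 UMIs in 8 of 27 cells) in Pi16-led members and 2937 CPM (79 of 86 cells) in C1qtnf3-led members, a ratio of 22.8 (16.6 to 32.1). Gpnmb, a transmembrane glycoprotein, was at 6.61 and 82.9 CPM, and the unconventional myosin gene Myo5a at 3.31 and 89.2 CPM. Igfbp3 and most of the adventitial list therefore differed in opposite directions between these members. C1qtnf3-led cKO members had a UMI of Dpt, the matrix protein dermatopontin, in 94.2% of cells, of Cd55 in 70.9% and of Cd34 in 59.3%. The other gated fibroblasts of that library had them in 82.2%, 47.9% and 43.7%, so these genes were not particular to the members. The 4 Pi16-led control members showed the same order for Dpp4 (229.6 against 0.80 CPM) and Igfbp3 (86.1 against 1503 CPM), but 95.2% of their 42 Igfbp5 UMIs came from 1 cell.

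**Figure D3:**
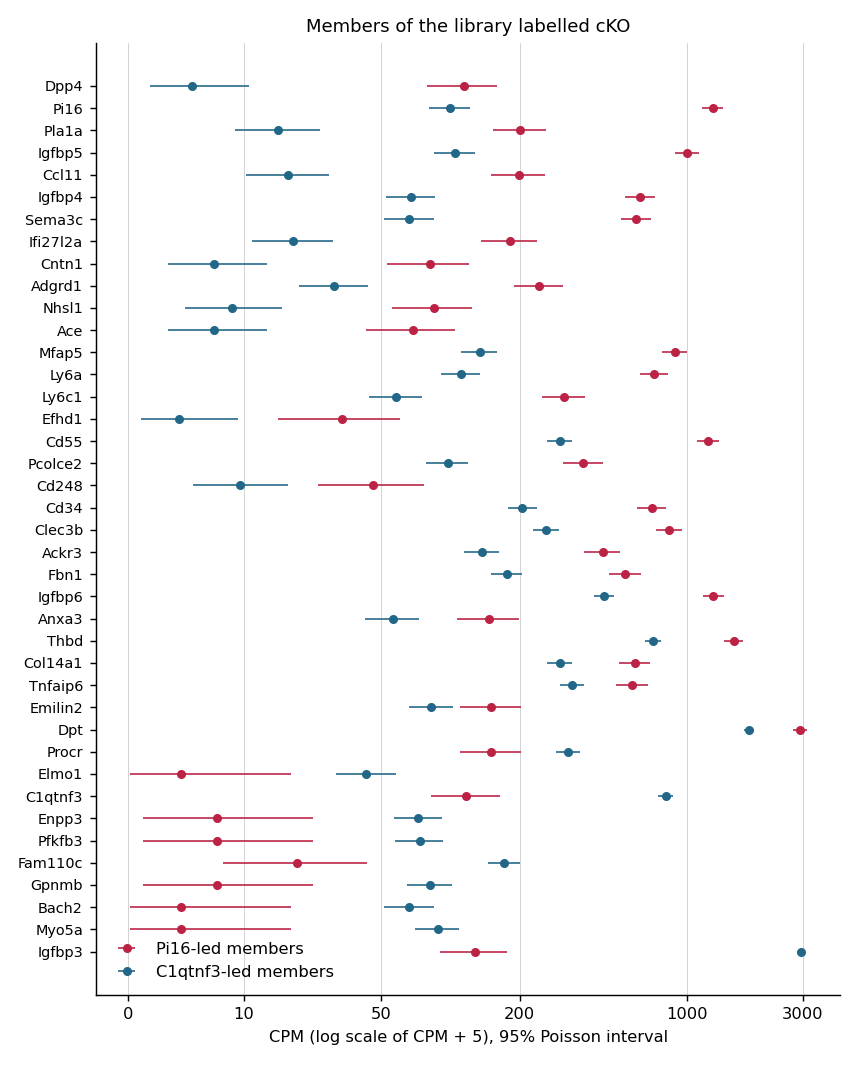
CPM of the marker and adventitial genes and of the genes differing most between the 27 Pi16-led and the 86 C1qtnf3-led members of the cKO library, on a log scale of CPM + 5 with 95% Poisson intervals for counting error. Dpp4 heads the genes higher in Pi16-led members (116 against 4.20 CPM), and Igfbp3 is at the bottom (129 against 2937 CPM).

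Pcolce2-led members, 17 in the control and 34 in the cKO library, stood between the other groups in the adventitial list, with median log2 ratios over C1qtnf3-led members of 0.32 and 0.75. The genes named next were chosen for a difference in the same direction in both libraries. Mfap5 was at 456 and 689 CPM against 133 and 135 CPM in C1qtnf3-led members. Csf1, the macrophage growth factor, was at 2803 and 2439 CPM against 1084 and 972 CPM. Ugdh, which makes the UDP-glucuronate needed for hyaluronan and proteoglycans, was at 1029 and 2302 CPM against 356 and 826 CPM. Lower in the Pcolce2-led members of both libraries were a heat shock gene and several trafficking or secreted products. Hspa1b was at 88.1 and 142 CPM against 762 and 677 CPM, and 1 C1qtnf3-led cell of each library held 43.7% and 21.7% of the latter UMIs. Cpe, a carboxypeptidase of secretory granules, was at 56.6 and 49.4 CPM against 208 and 201 CPM. Gas6, a ligand of the TAM receptors, was at 44.0 and 45.4 CPM against 197 and 142 CPM.

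Against the other gated fibroblasts of the same library, 44 of 7818 genes with a mean of at least 10 CPM (0.563%) were at least 2-fold higher in the members in both libraries, and 31 (0.397%) were at least 2-fold lower in both. The members were chosen on 16 genes of these same cells, and no test is attached. Of 19 adventitial list genes with that mean, 9 were higher in the members in both libraries and 4 lower in both. The shares of all genes were 35.6% and 32.1%. The list's median log2 ratios were 0.10 and 0.37, and 2 of its genes were at least 2-fold higher in both. A UMI of Dpp4 was in 3.81% of control members and 3.93% of the other control fibroblasts. In the cKO library these shares were 12.7% and 1.91%. Of the 15 genes named as highest, the ferritin receptor Scara5 led, at 58.6 and 93.4 CPM in the members against 7.59 and 14.8 CPM in the others. Scara5 was also uneven within the members, at 228 CPM in the Pi16-led and 53.5 CPM in the C1qtnf3-led cKO cells. Secreted factors formed a further part of the 15. Cxcl12, a chemokine that retains leukocytes and progenitor cells, was at 661 and 672 CPM against 233 and 202 CPM, and had a UMI in 100 of 105 and 143 of 157 members. Vegfd, a growth factor for lymphatic vessels, was at 102 and 86.9 CPM against 35.4 and 21.3 CPM. The aggrecan-cleaving protease Adamts5 was at 118 and 142 CPM against 37.7 and 30.6 CPM. Adamts5 and Cxcl12 thus were high in both libraries, while 3 of the 15 were more than 2-fold lower in the cKO than in the control members. Myoc, which encodes the secreted glycoprotein myocilin, was at 180.1 CPM in control and 36.7 CPM in cKO members, against 35.3 and 6.40 CPM in the others. Inmt, a methyltransferase, was at 162 and 43.7 CPM against 29.9 and 15.5 CPM, and Ms4a4d at 169 and 75.0 CPM against 53.2 and 26.6 CPM. The others of the 15 were Mustn1, D830025C05Rik, Pamr1, Ly6c1, Sap30, Fndc1, Sdc2 and Scn7a. Their members-over-others ratios ran from 2.45 (Sdc2, the syndecan-2 proteoglycan) to 4.07 (Mustn1) in the control library and from 2.52 (Sdc2) to 6.16 (Mustn1) in the cKO library.

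Genes of hormone-responsive endometrial stroma were low in the members. Igf1, a growth factor that estrogen raises in this tissue, was at 58.1 and 89.6 CPM in members against 331 and 413 CPM in the others. Foxl2, a transcription factor of ovary and uterine stroma, was at 1.78 CPM (3 UMIs) and 6.48 CPM (12 UMIs) against 23.7 and 81.1 CPM. Aldh1a2, which makes retinoic acid, was at 3.55 and 32.9 CPM against 55.7 and 273 CPM, and 77.0% of its cKO UMIs in members came from 1 cell. All 7 of the 8 listed endometrial stroma genes that passed the filter (Pgr, Esr1, Hoxa10, Hoxa11, Hoxd10, Wnt5a and Cxcl14) were below the others in both libraries (32.1% of all genes). Pgr, the progesterone receptor, was at 254 and 443 CPM against 529 and 801 CPM. Esr1, the estrogen receptor, was at 71.7 and 88.5 CPM against 109 and 171 CPM, so both receptors were still present. Hand2, the member that did not pass the filter, had 1 and 4 UMIs in members. Among the competing sets, the Ptx3 set was the nearest to the members for Igf1, as the plot of levels across cell sets shows.

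Matrix genes split by family. Of 16 collagen genes that passed the filter, 12 were lower in the members than in the others in both libraries and none was higher in both (32.1% and 35.6% of all genes), with median log2 ratios of -0.66 and -0.88 beside all-gene medians of 0.03 and -0.01. Col1a1 was at 609 and 419 CPM in members against 1489 and 1558 CPM. Col1a2 was at 832 and 695 CPM against 1906 and 1566 CPM. The microfibril and elastic fibre genes did not share this: 10 of 15 were higher in the members in both libraries and 2 were lower in both (35.6% and 32.1% of all genes), with medians of 0.31 and 0.29. Mfap5 was 1.17 and 1.02 higher on the log2 scale, Efemp1 (fibulin-3) 0.76 and 1.26 higher and Fbln5 0.65 and 1.13 higher. Mfap5 was uneven within the members, at 133 and 135 CPM in the C1qtnf3-led and 456 and 689 CPM in the Pcolce2-led. Eln, the elastin gene itself, had log2 ratios of -1.59 and -0.44. The complement genes that passed the filter leaned upward, with 6 of 7 above the others in both libraries (35.6% of all genes). C4b was at 104 and 73.4 CPM against 51.4 and 33.1 CPM, and C1s1 at 332 and 368 CPM against 228 and 233 CPM. The proteoglycan genes Dcn and Lum, which the gate used, were at 7940 and 8956 CPM and at 2073 and 2136 CPM in members.

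The share of members was then set side by side in the 2 libraries. Members were 11.8% of gated fibroblasts in the control library (105 of 893, exact interval 9.72 to 14.1) and 11.5% in the cKO library (157 of 1364, 9.86 to 13.3), a log2 ratio of -0.03 (-0.40 to 0.34). Of all kept barcodes they were 3.01% and 4.38%, a log2 ratio of 0.54 (0.18 to 0.91). Split by the leading rule gene, the members differed between the libraries. That split uses counts of the rule's own genes, so the shares by lead are given as a description. Pi16-led members were 0.448% of gated fibroblasts in the control and 1.98% in the cKO library, 4.42-fold higher (1.54 to 17.4). Pi16 did not differ in the members alone. In the other gated fibroblasts it had a UMI in 27 of 788 control (3.43%) and 192 of 1207 cKO cells (15.9%). With each barcode thinned to 1000 UMIs, those shares were 1.27% and 2.90%. C1qtnf3-led members were 8.73% and 6.30%, a log2 ratio of -0.47 (-0.93 to -0.01). Pcolce2-led members were 1.90% and 2.49%, with an interval of the log2 ratio from -0.49 to 1.32. Cell numbers depend on how well each digestion freed each cell type, which was not tested. After thinning all barcodes to 1000 UMIs, 8 control and 25 cKO members were left, a log2 ratio among gated fibroblasts of 1.17 (-0.02 to 2.53).

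Gene levels in the members were compared between libraries as log2 of cKO CPM over control CPM after adding 5 to each. Of 7818 genes, 179 (2.29%) were at least 2-fold higher in the cKO members and 61 (0.78%) at least 2-fold lower, with an all-gene median of 0.07. Scaling by the median of ratios gave 147 higher and 86 lower. Prickle1, the floxed gene, had 12 UMIs in the members of each library (7.11 and 6.48 CPM), a ratio of 0.91 (0.37 to 2.22). In the other gated fibroblasts it was at 4.68 and 9.31 CPM. Its counts did not bear out the labels in these cells. The kit reads transcript ends, and reads outside a deleted part would check nothing. The libraries are therefore called by their labels throughout. The fixed rule named the 12 highest and 12 lowest ratios, and 13 of these 24 owed more than 50% of their UMIs to 1 member. Haemoglobin transcripts were the extreme case: of 1304 haemoglobin UMIs in the cKO members, 1299 (99.6%) lay in 1 cell, and the control members had 12. Hba-a1, Hba-a2, Hbb-bs and Hbb-bt were all named through that cell. Mmp13, A530076I17Rik and the Ccl21a gene ENSMUSG00000094686 were likewise high through 1 cKO member each, with 98.6%, 100.0% and 78.2% of their UMIs there. Slpi, Nol4l, Cd74, H2-Aa, Cxcl2 and Cxcl10 were named as lower through 1 control member each, which held from 67.8% (Cxcl10) to 100.0% (H2-Aa) of the UMIs. These 13 are in the main ratios of single cells. Among the 11 others were Ntn4 (netrin-4, a laminin-binding protein), with 6 UMIs in 4 control members and 90 UMIs in 29 cKO members, and the cannabinoid receptor Cnr1, with 50 UMIs in 17 control members and 3 UMIs in 3 cKO members.

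The genes described next were chosen after their values were seen: at least 2-fold apart with and without the member holding most UMIs, a counting interval that leaves out 0, and a UMI in at least 20% of the members of the higher library. By this measure 104 of the 179 and 40 of the 61 qualified, and the 15 most different in each direction were examined. Among the higher genes were 3 secreted matrix or matricellular products. Ccn2 (connective tissue growth factor) went from 366 CPM (618 UMIs) in control members to 1289 CPM (2388 UMIs) in cKO members, 3.52-fold (3.22 to 3.85), and from 218 to 323 CPM in the other fibroblasts. Col14a1, a fibril-associated collagen, went from 103 to 350.3 CPM, 3.40-fold (2.87 to 4.04), against 108 and 134 CPM in the others. Cilp, a secreted matrix protein that binds transforming growth factor beta, went from 53.3 to 261 CPM, 4.89-fold (3.90 to 6.19), against 93.3 and 119 CPM. In each of these 3 the members of the cKO library were the highest of the 4 values. Each was also more than 2-fold higher in the C1qtnf3-led members alone, with log2 ratios of 1.55 for Ccn2, 1.70 for Col14a1 and 1.99 for Cilp.

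Inhibitors and surface proteins followed the same direction. Timp1, an inhibitor of matrix metalloproteinases, went from 16.0 CPM (27 UMIs) to 144 CPM (266 UMIs), 8.98-fold (6.03 to 13.9), while the other fibroblasts had 156 and 145 CPM. One cKO member held 36.1% of those UMIs, and the log2 ratio was 2.40 without the top members and 1.76 without the deepest 5% of members. Without members holding markers of other cell types it was 0.58, below 2-fold. Fstl3, a secreted inhibitor of activin, went from 13.6 to 61.5 CPM, 4.52-fold (2.87 to 7.41), against 27.8 and 37.2 CPM. Thy1, a surface glycoprotein of fibroblasts, went from 8.89 to 61.5 CPM, 6.92-fold (4.03 to 12.8), and moved alike in the others, from 9.11 to 75.0 CPM. Genes of sugar nucleotide supply and signalling were also among the 15. Ugp2, which makes UDP-glucose, went from 75.2 to 279.6 CPM (3.72-fold, 3.05 to 4.55) against 90.4 and 116 CPM in the others. Arrdc3, an arrestin-domain protein, went from 19.0 to 81.5 CPM against 32.8 and 33.4 CPM. Tnfrsf11b, the decoy receptor osteoprotegerin, went from 70.5 to 243 CPM against 56.7 and 80.8 CPM, and its log2 ratio in C1qtnf3-led members was 0.85. Ctla2a was the exception within the members. Its total was 548 CPM in control and 2917 CPM in cKO members, but 50.2% of the cKO UMIs lay in 1 cell. The log2 ratio was -2.26 in C1qtnf3-led and 4.04 in Pcolce2-led members. The other fibroblasts had 303 and 2307 CPM.

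Lower genes in the cKO members included Myoc and Inmt, 2 of the genes highest in members over other fibroblasts. Myoc had 304 UMIs in 51 of 105 control members and 68 UMIs in 24 of 157 cKO members, 4.91-fold lower (3.76 to 6.48). Inmt had 273 UMIs in 51 and 81 UMIs in 36 members, 3.70-fold lower (2.88 to 4.80). In the others Myoc was lower too, with a log2 ratio of -1.82, while Inmt had -0.77. Ggt5, a gamma-glutamyl transferase that processes leukotrienes, went from 215 CPM in 79 members to 76.6 CPM in 70 members, 2.81-fold lower (2.30 to 3.43), against 114 and 129 CPM in the others. Also among the 15 lower genes were 2 metalloproteinases. Mmp3 (stromelysin-1) went from 799 to 205 CPM, 3.90-fold lower (3.48 to 4.39), and from 857 to 283 CPM in the others. Mmp11 (stromelysin-3) went from 113 to 35.6 CPM, 3.18-fold lower (2.39 to 4.27), against 28.1 and 22.3 CPM. Its direction depended on the cells: the log2 ratio was -1.76 in C1qtnf3-led and 1.24 in Pcolce2-led members. Ppargc1a, a coactivator of mitochondrial genes, had 39 UMIs in 24 control members and 5 UMIs in 2 cKO members, 8.56-fold lower (3.37 to 27.8). Lrig1, an inhibitor of growth factor receptors, went from 97.2 CPM in 60 members to 32.9 CPM in 33. Cxcl1, a neutrophil chemokine, was at 506 and 184 CPM over all members. Its log2 ratio was -0.10 in C1qtnf3-led and -3.58 in Pcolce2-led members. A UMI of Cxcl1 was in 28.6% and 29.9% of members, and 1 cell held 40.6% and 41.5% of the UMIs. Prap1, a secreted product of uterine epithelium, had 45 UMIs spread over 35 control members and none in the cKO members. With a floor of 3 UMIs over the library's members it was 16.5-fold lower, and the counting interval began at 12.8. Droplets of 10 to 100 UMIs, which hold free RNA, had it at 11317 CPM in the control and 249 CPM in the cKO library, and its log2 ratio was 0 once that profile was subtracted.

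**Figure D4:**
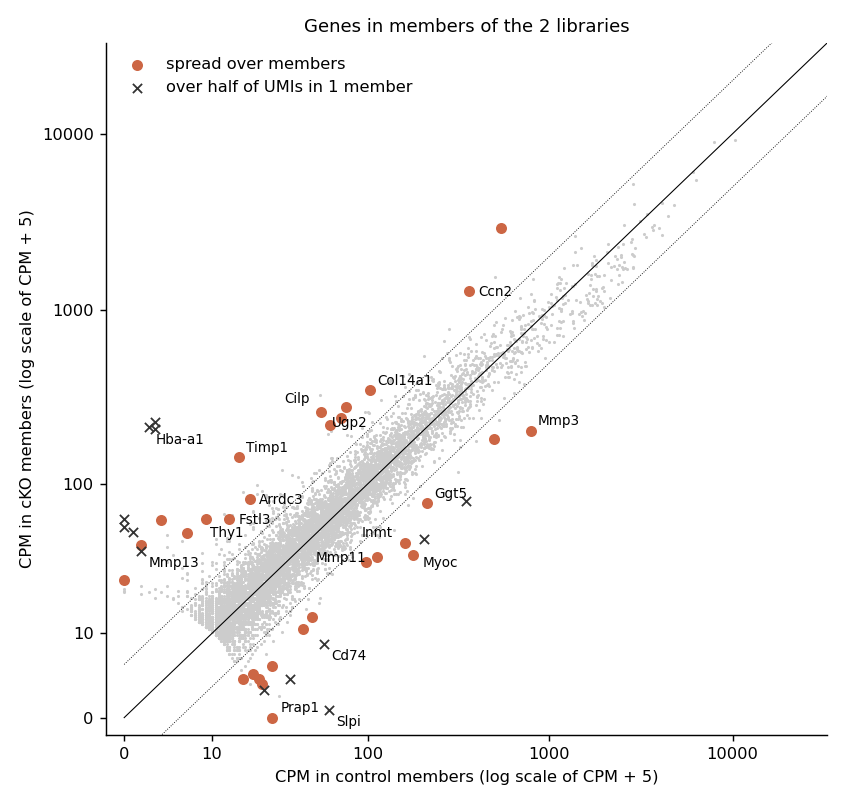
CPM of 7818 genes (grey) in control members (x axis) and cKO members (y axis), on log scales of CPM + 5; the solid line marks equal levels and the dotted lines 2-fold differences. Orange points are the 15 higher and 15 lower genes spread over members, such as Ccn2 (366 and 1289 CPM) and Mmp3 (799 and 205 CPM), and crosses are the 13 genes with more than 50% of UMIs in 1 member, with the haemoglobin genes at the upper left.

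Gene lists placed these genes in their families. They are read beside the background of 2.29% of genes higher and 0.78% lower and the all-gene median of 0.07, and a list's count is a description. Of the 19 adventitial genes that passed the filter, 7 were at least 2-fold higher in the cKO members and none lower, with a median log2 ratio of 0.91. The 7 were Dpp4, Cd55, Sema3c, Fbn1, Anxa3, Col14a1 and Tnfaip6. Sema3c went from 61.6 to 205 CPM and Cd55 from 207 to 546 CPM in the members. The list's median was 0.67 in the C1qtnf3-led members and 0.29 in the other fibroblasts. Mfap5, for example, was at 219 and 416 CPM over all members and at 133 and 135 CPM in C1qtnf3-led members. Igfbp5 went the other way, from 437 to 291 CPM over all members and from 479 to 106 CPM in the C1qtnf3-led.

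Microfibril and elastic fibre genes had 4 of 15 higher, none lower and a median of 0.73, against 0.19 in the other fibroblasts. Fbn1 went from 102 to 259 CPM and Mfap4 from 92.4 to 212 CPM. Fbln1 (fibulin-1) went from 259 to 534 CPM, and Eln from 60.4 to 133 CPM against 192 and 182 CPM in the others. In the hyaluronan list 2 of 5 genes were higher, with a median of 0.81 against -0.02 in the others. With no filter on low levels, when more of the 10 listed genes count, the median was 0.09. These were the synthase Has1, from 134 to 405 CPM, and Tnfaip6, whose product crosslinks hyaluronan, from 158 to 419.9 CPM. Cd44, the hyaluronan receptor, was at 1117 and 1145 CPM. Collagen processing genes had 2 of 17 higher and a median of 0.54. The transglutaminase Tgm2 went from 35.5 to 113 CPM, much as in the others (62.6 and 181 CPM), and Crtap, a subunit of the prolyl 3-hydroxylase complex, from 47.4 to 103 CPM. The collagens had 2 of 16 higher (Col14a1 and Col16a1) and a median of 0.27. Col3a1 went the other way, from 569 to 318 CPM, a log2 ratio of -0.83.

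Adhesive and matricellular genes had 3 of 15 higher: Ccn2, Fn1 (fibronectin), from 284 to 786 CPM, and the proteoglycan Vcan, from 143 to 305 CPM. Their median was 0.48 over all members and 0.22 in the C1qtnf3-led. Proteases and their inhibitors had 3 of 22 higher (Timp1, Adamts4 and Timp3) and 2 lower (Mmp3 and Mmp11). Timp3 went from 142 to 323 CPM. Small leucine-rich proteoglycans had none of 5 past 2-fold in either direction. Signalling genes were read in the same way. In the transforming growth factor beta and bone morphogenetic protein list 3 of 16 were higher, the ligand Tgfb1 (40.9 and 103 CPM), the receptor Tgfbr2 (171 and 348 CPM) and the co-receptor Tgfbr3 (62.2 and 136 CPM). In the Wnt list 2 of 12 were higher, the secreted antagonist Sfrp4 (133 and 397 CPM) and the receptor Fzd4 (13.0 and 34.5 CPM). The insulin-like growth factor list had 1 of 8 higher, Igfbp4, from 76.4 to 194 CPM, but C1qtnf3-led members had it at 71.1 and 68.2 CPM. Of the 10 planar cell polarity and REST genes that passed the filter, none was past 2-fold, and the median was 0.10. Rest, a transcriptional repressor that PRICKLE1 is known to bind, was at 149.9 and 194 CPM. Of the 4 steroid receptor genes none was past 2-fold, with a median of 0.45 against 0.61 in the others.

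Inflammatory lists were mixed. Of 14 chemokine and cytokine genes 3 were higher (Ccl11, Il6 and Tslp) and 2 lower (Cxcl2 and Cxcl1). Il6 went from 58.7 to 195 CPM, below the 191 and 482 CPM of the others. Tslp had 8 UMIs in 8 control members and 36 UMIs in 20 cKO members. The interferon-stimulated genes that passed the filter leaned down in both cell groups. Of 7 such genes 3 were lower (Cxcl10, Ifi27 and Slfn5), with a median of -0.43 in the members and -1.05 in the others. Ifi27 had 89 UMIs in 53 control members and 35 UMIs in 27 cKO members. Antigen presentation genes had none of 6 past 2-fold and a median of -0.21. In the retinoid list 1 of 5 genes was higher, Aldh1a2, through 1 cell, and 1 was lower. The list's median was -0.74, against 0.03 in the others, and became 0.15 with no filter on low levels. In the complement list Cd55 was the higher gene and C2 the lower, from 33.2 to 12.4 CPM. Among 21 immediate early and heat shock genes, which tissue digestion can induce, Ier3 (170.0 and 432 CPM) and Nr4a1 (162 and 366 CPM) were higher and the median was 0.06. The part of digestion in these values was not tested.

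**Figure D5:**
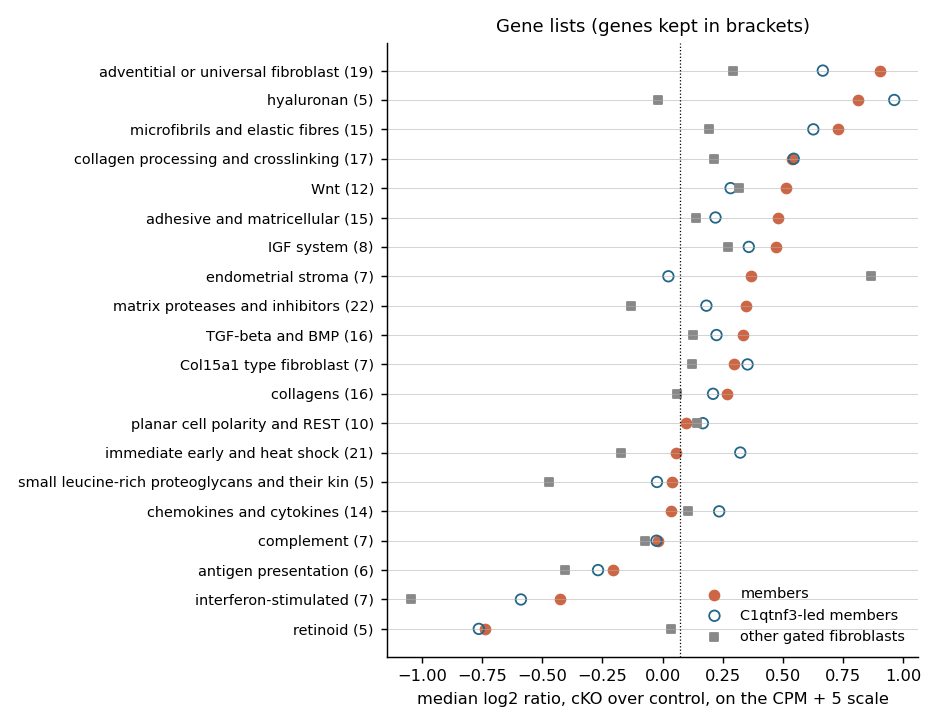
Median log2 ratio of cKO over control (CPM + 5 scale) of each gene list with at least 5 genes passing the filter, in all members, in C1qtnf3-led members and in the other gated fibroblasts; the dotted line is the all-gene median in members, 0.07. The adventitial list has the highest median in members (0.91), and the hyaluronan list (0.81, and 0.09 with no filter on low levels) and the microfibril list (0.73) stand at -0.02 and 0.19 in the other fibroblasts.

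Markers of other cell types were present in the members, and some differed between the libraries. Summed pericyte markers were at 16.0 and 42.6 CPM in control and cKO members, with Rgs5, Kcnj8 and Higd1b at 0 in the control and Higd1b at 0 in the cKO members. Endothelial markers were at 24.9 and 70.7 CPM, with 5 of 5 detected in cKO members and Cdh5 and Cldn5 at 0 in control members. Epithelial markers were at 11.8 and 3.78 CPM, with Krt8, Cdh1 and Krt19 at 0 in cKO members, and leukocyte markers at 66.9 and 26.4 CPM, mostly from the Cd74 of 1 control cell. Smooth muscle markers were at 517 and 504 CPM, with a UMI in 80.0% and 68.8% of members, against 1008 and 742 CPM in the other fibroblasts, mesothelial markers at 80.6 and 66.9 CPM (Msln, Lrrn4 and Upk1b at 0 in both), Schwann markers at 2.96 and 2.70 CPM, and the 3 adipocyte markers at 0. Without the members that held a UMI of the leading muscle, endothelial, mesothelial or leukocyte markers, 70 control and 112 cKO members were left, with 222 genes higher and 122 lower. Genes named above that were then no longer 2-fold apart, with their log2 ratios, were Timp1 (0.58), Eln (0.49), Tgfbr3 (0.57), Vcan (0.69), Anxa3 (0.84), Tgfbr2 (0.99), Nr4a1 (0.96), Aldh1a2 (-0.03), Slfn5 (-0.43), Ms4a4d (-0.84) and C2 (-0.93), beside Cd74, H2-Aa, Slpi, Mmp13 and the Ccl21a gene, which rest on single members. Median mitochondrial shares were 1.40% and 1.45%. The libraries held 45035801 and 34261441 UMIs, and 6 barcodes were kept in both libraries, none of them a member. The part of the marker differences and of depth in the other ratios was not tested.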

How the data were processed

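Whole-uterus cells of 2 libraries (1 per group, each a pool of 3 mice aged 6 months) were captured with a kit that reads transcript 3' ends. The authors deposited raw UMI counts for all barcodes, with no normalization; the file headers give Cell Ranger version 4, whereas the submitters' processing notes give Cell Ranger 6.1.1 and mm10. Of 32285 gene identifiers, 32158 (99.6%) occur in GENCODE vM21. No column of per-sample values was left unlisted (0). Barcodes were kept, gated and assigned by the rule in the report; counts were used as deposited, and no doublet caller was run, so doublets may remain. Members' UMIs were summed per library, scaled to CPM, and compared as log2 after adding 5 CPM among genes with a mean of at least 10 CPM. A gene is called at a log2 ratio of 1 or more, or -1 or less. Levels have exact Poisson, shares Clopper-Pearson and ratios exact conditional intervals (95%), for counting error only. With 1 library per group there is no test, p-value or standard error. Control and cKO members had medians of 14567 and 10230 UMIs, which limits what low genes can show. Named genes followed a rule: Prickle1, the rule and marker genes, the 15 highest and 10 lowest against other gated fibroblasts in both libraries (mean of at least 50 CPM), the 12 highest and 12 lowest between libraries with an interval off 0, and list genes with the largest ratios or levels. Members and lists were chosen with earlier results of these data known. Of the interferon list's symbols, 1 (Mx1) was not matched and was not used here. Alternatives covered thresholds, pseudocount, scaling, filters, thinning, free RNA, depth and other-class markers. The calculation was tested on simulated data. Promoters came from RefSeq (GRCm38.p6). Python 3.11.15, numpy 2.4.6, scipy 1.17.1, pandas 2.3.3 and matplotlib 3.10.9 were used.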

Additional observations from a re-analysis of the deposited data

Results flagged for a closer look

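The log2 ratios of cKO over control had opposite directions in the members and in the other gated fibroblasts for 9 of the 24 named genes, and in no case was the difference tested. Their difference, members minus others, was 7.99 for the Ccl21a gene ENSMUSG00000094686 (3.57 and -4.42), a chemokine of lymphatic endothelium that had 101 UMIs in 4 cKO members. It was 6.05 for Hba-a1, 5.45 for Hba-a2, 5.67 for Hbb-bs and 3.75 for Hbb-bt, all through the 1 cKO member that held 99.6% of the haemoglobin UMIs. It was 3.31 for Mmp13 (98.6% of cKO UMIs in 1 member), -3.52 for Nol4l (94.9% of control UMIs in 1 member) and -2.87 for Cxcl2 (85.1% of control UMIs in 1 member). For Timp1 it was 2.92 (2.82 and -0.10), with UMIs in 19 control and 35 cKO members, and the members' ratio was 0.58, below 2-fold, without members holding markers of other cell types.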

How the results depend on the processing

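No paired analysis was possible because each group is 1 library and the labels carry no replicate numbers. The 179 higher and 61 lower genes became 1047 and 1004 with members thinned to 1000 UMIs, where few UMIs are left per gene, 269 and 100 with no filter, and 70 and 24 with a mean of at least 50 CPM. The lower count alone moved to 117 with a pseudocount of 1 CPM, 97 with the mean of per-cell CPM and 122 without members holding other-class markers. Of 4 settings chosen after seeing the data (C1qtnf3-led members alone, an equal mix of leads, each gene's top member left out, and barcodes kept in both libraries left out), C1qtnf3-led members alone gave 141 lower genes, and the equal mix of Pcolce2-led and C1qtnf3-led members gave 96. The log2 ratio of the members' share became 1.17 of gated and 1.61 of kept barcodes after thinning, and 0.35 and 0.92 where members needed only 3 UMIs of the rule genes. Against winners of the other sets only, 69 genes were higher in members in both libraries; with thinning 121 were higher and 207 lower. In all, 3 list medians reversed: retinoid to 0.15 with no filter, Wnt to -0.068 with thinning, and collagens to -0.12 without members holding other-class markers. Among genes with most UMIs in 1 member, 9 reversed. Mmp13 went to -0.18 without the deepest 5% of members, -0.22 without other-class markers, -0.21 in C1qtnf3-led members and -0.013 without each gene's top member. Under the same last 3 settings Cd74 went to 0.46, 1.16 and 0.38, and H2-Aa to 0.24, 0.70 and 0.28. With 5 UMIs required, Hba-a1, Hba-a2, Hbb-bs, Hbb-bt and Nol4l went to -0.49, -0.45, -0.046, -0.18 and 0.45. In C1qtnf3-led members the 4 haemoglobin genes went to -0.40, -0.44, -0.29 and -0.21 and Cxcl2 to 3.97. Without top members Hba-a1, Hba-a2 and Nol4l went to -0.31, -0.30 and 0.18. Over 15 settings, 283 list medians stayed within their counting interval and 15 moved outside it without reversing. Of the gene ratios, 342 moved by less than their counting error and 85 by more without reversing. Depth limits genes under about 10 CPM, for which the members hold few UMIs.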

Other observations

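The comparison genes Mid1 and C1ra were chosen after their values were seen. Among the named genes spread over members were 2 transcripts that overlap 1 gene. Gm15247 (chromosome X, 169985801 to 169986939) and G530011O06Rik (169975043 to 169978917) are annotated on the minus strand within the span of Mid1 (169685199 to 170005736, plus strand), a microtubule-binding ubiquitin ligase gene near the end of that chromosome, in GENCODE vM21 on mm10. In the members Gm15247 had 5 control and 112 cKO UMIs, in 3 and 38 cells, and G530011O06Rik had 2 and 79 UMIs, in 2 and 32 cells. Mid1 itself had 41 and 154 UMIs, 3.42-fold higher (2.41 to 4.96). The other fibroblasts moved the same way, with Mid1 at 26.7 and 67.2 CPM and Gm15247 at 0.13 and 15.9 CPM. Whether the counting used strand is not given in the sources used here, so reads of Mid1 and of these transcripts cannot be told apart with certainty.

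C1rb is a close copy of the complement protease gene C1ra on chromosome 6. It had 0 UMIs in control members and 46 UMIs in 38 cKO members. With a floor of 3 UMIs over the library's members C1rb was 13.97-fold higher, and the counting interval began at 10.9. In the other gated fibroblasts it had 1 and 130 UMIs. C1ra was at 64.0 and 63.2 CPM in the members. Reads of near-identical copies can be assigned to either or dropped, so the level of C1rb is uncertain.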
